A study of Mus musculus with 7 samples.

Results

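The genes described here run the thioredoxin and glutaredoxin systems and the repair of oxidised methionine and hyperoxidised peroxiredoxin. They were followed in lens epithelium of mice without SPARC, a secreted matricellular glycoprotein that binds collagen of the lens capsule. The members are 10 genes (Txn1, Txn2, Txnrd1, Txnip, Glrx, Glrx3, Glrx5, Msra, Msrb2 and Srxn1). They were taken as every probe set whose single gene symbol in the platform annotation is one of these names, which gave 20 of 45037 probe sets. A further 4 probe sets carry the name Glrx3 together with a second gene and were left out.

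The study set 4 lenses of 3 SPARC-null (KO) mice against 3 lenses of 3 wild-type (WT) mice, all 28 days old, on a C57Bl/6 background, housed normally and born in a single litter. KO lenses were both eyes of animal 1 (1L and 1R) and the left eyes of animals 4 and 7 (4L and 7L), and WT lenses were the left eyes of animals 2, 5 and 6 (2L, 5L and 6L). KO animal 7 was male and the other 5 animals were female. Epithelial cells were cut from stained cryosections with a laser, and the twice-amplified RNA of each lens was hybridised to its own Affymetrix mouse array, on which a gene is read by 1 or more probe sets. The labels do not say which part of Sparc was deleted or how the null allele was made. The animal was the unit of replication (n = 3 in each group), with the values of 1L and 1R averaged.

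Thioredoxins and glutaredoxins are small proteins that reduce disulfides through a pair of cysteines in the active site. Thioredoxin is recharged by thioredoxin reductase with electrons from NADPH, and glutaredoxin by glutathione. Methionine sulfoxide reductases use thioredoxin to turn oxidised methionine back into methionine. The lens holds its proteins for life under light and oxidant load, and these systems are known there as a defence against protein oxidation linked to cataract.

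Signals are the deposited linear intensities, and levels and differences are on the log2(signal + 16) scale after quantile normalization. As a gauge of background, 27 probe sets for bacterial transcripts, which mouse RNA should leave dark, read up to 45.5. Of the 20 member probe sets, 14 lay above this highest bacterial control in all 7 lenses, and 2 lay at or under it in all 7. Each of the 10 genes had at least 1 probe set above it in every lens. The Sparc signal was between 8.14 and 70.5 in KO lenses and between 27370.5 and 49971.5 in WT lenses at its brightest probe set, so no lens went against its label.

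None of the 20 member probe sets passed the test between KO and WT animals, in either direction (limma, Benjamini-Hochberg adjusted p = 0.99988 for each), and 0 had an unadjusted p under 0.05. Over the whole array 0.00666% of probe sets passed the adjusted threshold of 0.05 and 4.06% had an unadjusted p under 0.05. Those that passed were 3 probe sets, with 1416589_at and 1448392_at of Sparc among them. In simulated data 4.9% of 2-fold changes, placed at probe sets above the median level, passed the adjusted threshold. Of these 2-fold changes 80.2% had an unadjusted p under 0.05 in limma, and 53.8% of 4-fold changes passed the adjusted threshold. Failing the adjusted threshold therefore does not show that a gene was unchanged. Values were lower in KO at 14 of the 20 probe sets, where 51.6% of all probe sets were lower, and higher at 6. Taking the brightest probe set of each gene, 7 of 10 were lower in KO (54.4% of all genes) and the median log2 difference was -0.14, against -0.03 over all 18193 genes. The differences at the 20 probe sets ran from -0.66 to 0.44, and their median standard error was 0.32. The brightest probe sets are plotted by lens and all 20 differences with their intervals.

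**Figure D1:**
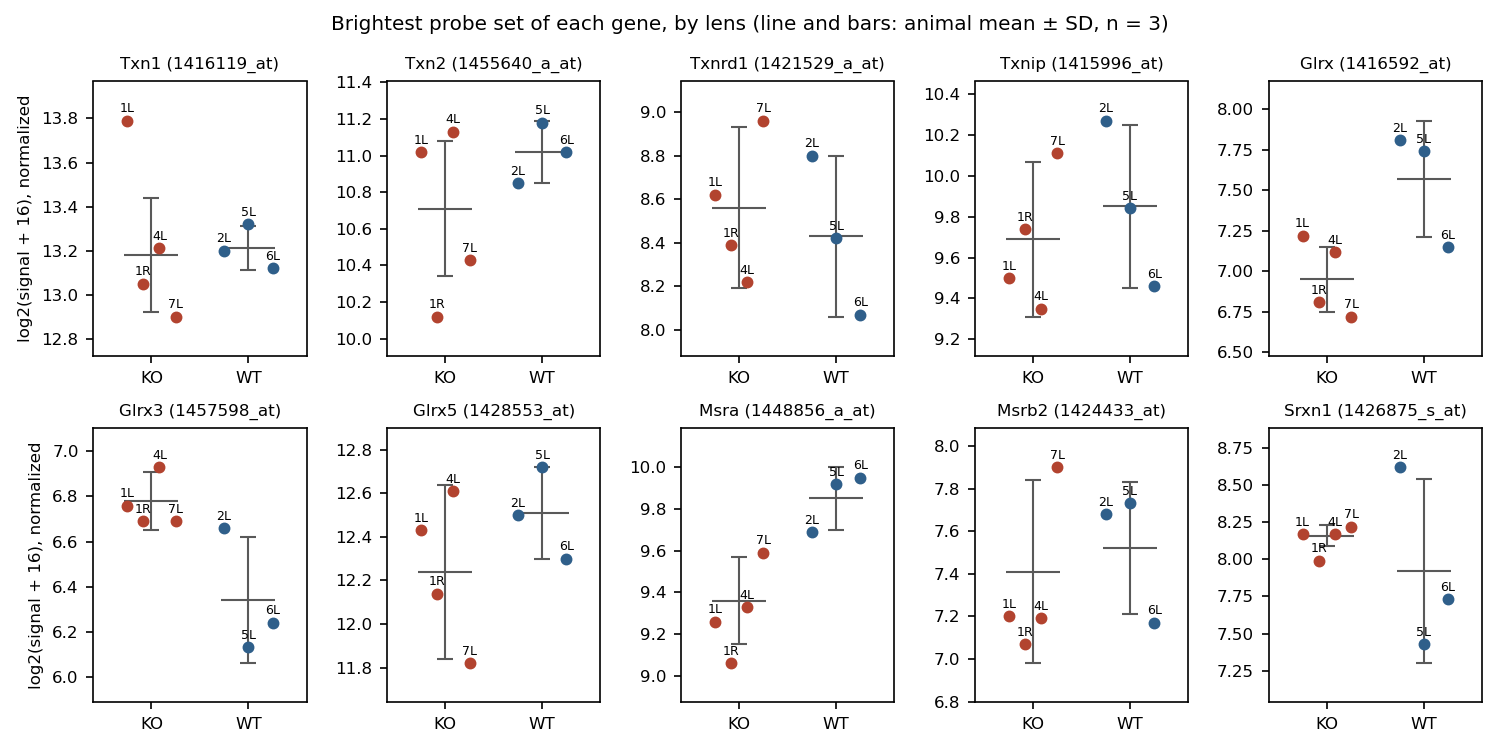
Normalized log2(signal + 16) of the brightest probe set of each of the 10 genes, with KO lenses (red, 1L, 1R, 4L, 7L) left of WT lenses (blue, 2L, 5L, 6L). The grey line and bars give the mean and SD over 3 animals, and each panel has its own axis. KO and WT lenses are apart at Msra (KO lower) and at Glrx3 (KO higher) and overlap at the other 8 genes.

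**Figure D2:**
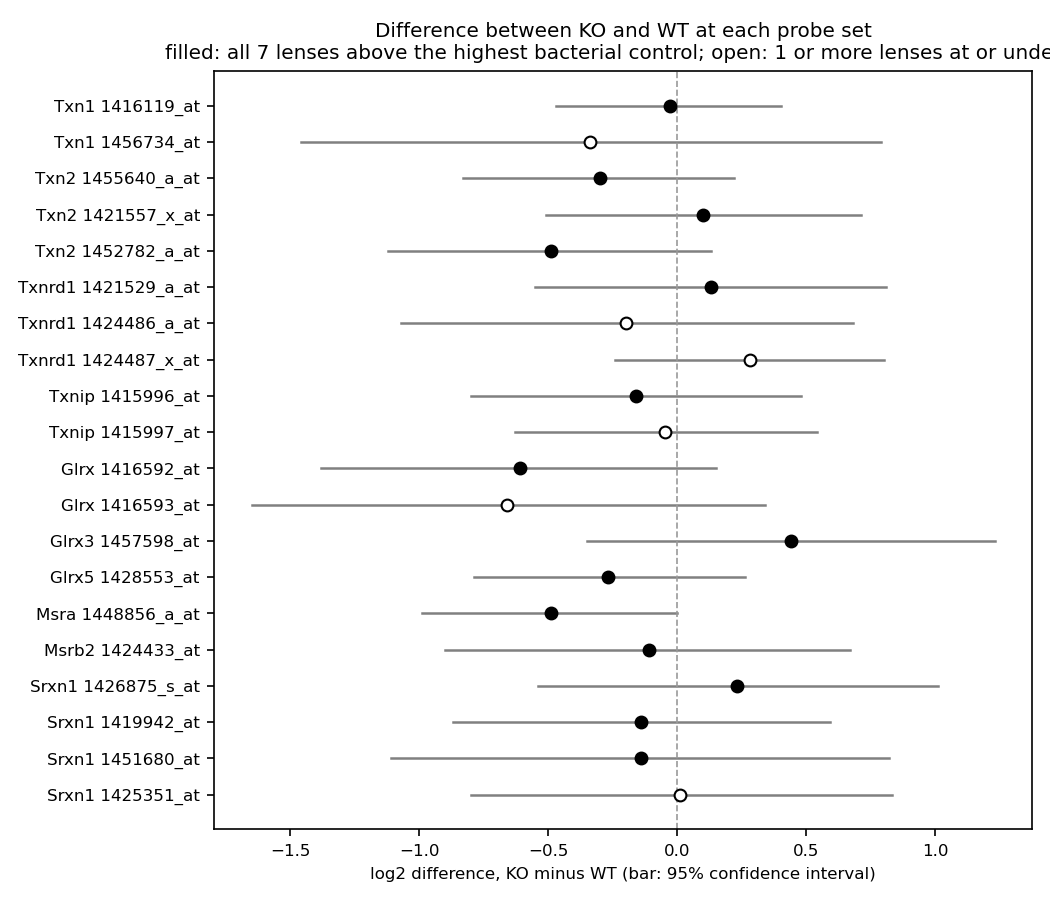
Log2 difference, KO minus WT, of each of the 20 probe sets (point) with its 95% confidence interval from limma (bar). Filled points mark the 14 probe sets above the highest bacterial control in all 7 lenses and open points the others. The points lie between -0.66 and 0.44.

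Txn1 is the cytosolic and nuclear thioredoxin. Its bright probe set had signals of 14805 in 1L, 8517 in 1R, 10165 in 4L and 7160.2 in 7L, against 7968, 10973.5 and 9490.1 in the WT lenses 2L, 5L and 6L. The highest and the lowest of the 7 signals were both in KO lenses, and the groups overlapped. The Txn1 level averaged 13.18 ± 0.26 over KO animals and 13.21 ± 0.10 over WT animals (SD, n = 3), a log2 difference of -0.03 (SE 0.19, 95% confidence interval -0.47 to 0.40). The interval leaves out changes of Txn1 as large as 0.5 on the log2 scale in either direction, at the threshold of 0.05 for this probe set alone. Its weak probe set was at 69.1, 6.19, 5.36 and 7.40 in 1L, 1R, 4L and 7L, and at 4.86, 62.3 and 7.94 in 2L, 5L and 6L. Only 1L in KO and 5L in WT were above the highest bacterial control there, so this probe set gives no direction.

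Txn2, the mitochondrial thioredoxin, was read by 3 probe sets, all above the highest control in every lens. The brightest, 1455640_a_at, had signals of 2021 (1L), 1097 (1R), 2205 (4L) and 1401 (7L) in KO, against 1894, 2338 and 2066 in WT. Lenses 1R and 7L were below all WT lenses, and 1L and 4L lay among them. The log2 difference was -0.30 (SE 0.23, interval -0.83 to 0.22). At 1452782_a_at the KO signals were 412, 221, 531 and 373, and the WT signals 646, 552 and 471. Here 3 of the 4 KO lenses were below all WT lenses, with 4L among them, and the difference was -0.49 (SE 0.28, interval -1.12 to 0.13, unadjusted p = 0.107 in limma). Without KO animal 4 the limma unadjusted p was 0.0260 at this probe set and 0.0456 at 1455640_a_at, with differences of -0.73 and -0.51. Without KO animal 1 the difference at 1452782_a_at was -0.30, and without KO animal 7 that at 1455640_a_at was -0.16. The third, 1421557_x_at, whose name marks probes that may bind other transcripts too, went the other way, with KO signals of 1217, 711, 1490.5 and 1018 and WT signals of 1349.8, 757 and 1139.7. The groups overlapped there and the difference was 0.10 (SE 0.27). The 3 probe sets of Txn2 therefore did not give 1 direction.

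Txnrd1 encodes the cytosolic thioredoxin reductase, a selenoprotein. Its bright probe set had signals of 388, 326, 276 and 490.0 in the KO lenses 1L, 1R, 4L and 7L, and of 459, 309.6 and 239 in the WT lenses 2L, 5L and 6L. The ranges of KO and WT lenses overlapped over most of their width, with a log2 difference of 0.13 (SE 0.31, interval -0.55 to 0.81). The other Txnrd1 probe sets were near background. One was at 1.04 to 14.7 in all 7 lenses, and the other was above the highest control in 1L alone (60.4).

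Txnip, an arrestin-family protein that binds reduced thioredoxin and is induced by glucose, had signals of 712, 838, 619.9 and 1112 in KO and of 1287, 873 and 665 in WT lenses at its bright probe set. The WT lens 2L was highest and the KO lens 4L lowest, and the groups overlapped. The Txnip level averaged 9.69 ± 0.38 over KO animals and 9.85 ± 0.40 over WT animals (SD, n = 3), a log2 difference of -0.16 (SE 0.28, interval -0.80 to 0.48). The difference was 0.05 without WT animal 2 and 0.01 without KO animal 4, so its sign rested on single animals. The other probe set stayed at 6.14 to 19.0 in all 7 lenses, under the highest bacterial control.

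Glrx, the cytosolic glutaredoxin that removes glutathione from protein thiols, had signals of 141 in 1L, 103 in 1R, 122 in 4L and 92.3 in 7L, against 215 in 2L, 185 in 5L and 121 in 6L. The WT lenses 2L and 5L were above all KO lenses, and 6L fell within the KO range. The level averaged 6.95 ± 0.20 over KO animals and 7.57 ± 0.36 over WT animals (SD, n = 3). This log2 difference of -0.61 (SE 0.34, interval -1.38 to 0.15, unadjusted p = 0.102 in limma) was the largest among the 14 member probe sets above the highest control in every lens. The second Glrx probe set differed by -0.66 (SE 0.45), but all 4 KO lenses and 2 of the 3 WT lenses were at or under the highest control (6.35, 33.0, 19.4 and 4.29 in KO, 33.4, 53.7 and 7.00 in WT). That difference was -1.15 without WT animal 6 (unadjusted p = 0.0140 in limma), -0.31 without WT animal 5 and -0.41 without KO animal 7. Neither probe set of Glrx passed the adjusted test.

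Glrx3, a glutaredoxin of the cytosol and nucleus that carries iron-sulfur clusters, was read by a single probe set that names no other gene. Its signals were 96.7, 93.7, 105 and 89.6 in the KO lenses 1L, 1R, 4L and 7L, and 80.3, 51.9 and 59.4 in the WT lenses 2L, 5L and 6L. All KO lenses were above all WT lenses, and on the normalized scale the closest pair, the KO lenses at 6.69 and the WT lens 2L at 6.66, was nearly level. The WT lenses 5L and 6L were not far above the highest bacterial control of 45.5. The log2 difference was 0.44, or 1.35-fold (SE 0.35, interval -0.35 to 1.23, unadjusted p = 0.244 in limma).

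Glrx5, the mitochondrial glutaredoxin needed for iron-sulfur cluster assembly, had signals of 5535, 4431, 6510.0 and 3597 in KO and of 5363, 7044 and 5231 in WT lenses. Lens 7L was lowest and 5L highest, with the other KO lenses on either side of 2L and 6L. The difference was -0.27 (SE 0.23, interval -0.79 to 0.26). It was -0.06 without KO animal 7, -0.16 without WT animal 5 and -0.45 without KO animal 4 (unadjusted p = 0.0943 in limma).

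Msra, the reductase of the S form of methionine sulfoxide, had signals of 599.8 in 1L, 522 in 1R, 612 in 4L and 771 in 7L, against 861 in 2L, 930.5 in 5L and 944 in 6L. All 4 KO lenses were below all 3 WT lenses. The level differed by -0.49 on the log2 scale, a ratio of KO to WT of 0.710 (SE 0.22, interval -0.99 to 0.00, unadjusted p = 0.0504 in limma), which did not pass the adjustment. Of 17 alternative settings, 7 gave an unadjusted p under 0.05, the smallest being 0.0126 with array weights. The difference ran from -0.61 to -0.40 over them, and the adjusted p was never under 0.66196. Without KO animal 1 the unadjusted p was 0.160. Msra and Glrx3 were the only members whose lenses did not overlap on the normalized scale, 1 of 20 probe sets lower in KO (2.76% of all probe sets) and 1 higher (2.56%), 5.33% of all probe sets in either direction.

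Msrb2, the mitochondrial reductase of the R form of methionine sulfoxide, overlapped between the groups. Its signals were 139, 126, 129 and 228 in KO and 194, 182 and 122 in WT lenses. The male KO lens 7L was the highest of all 7, while the other 3 KO lenses were near the WT lens 6L. The difference was -0.11 (SE 0.35, interval -0.90 to 0.67), and whether the effects at Msra and Msrb2 differ was not tested. It was -0.36 without KO animal 7 and 0.03 without KO animal 1.

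Srxn1 encodes sulfiredoxin, which restores hyperoxidised peroxiredoxins and is a known target of the transcription factor Nrf2. The brightest of its 4 probe sets had signals of 283, 249, 266 and 286 in the KO lenses 1L, 1R, 4L and 7L, and of 401, 145 and 185 in the WT lenses 2L, 5L and 6L. The KO lenses lay close together, inside the range of the WT lenses. The log2 difference was 0.23 (SE 0.35, interval -0.54 to 1.01), 0.57 without WT animal 2 and -0.01 without WT animal 5. The other 3 probe sets differed by -0.14 (1419942_at, SE 0.33), -0.14 (1451680_at, SE 0.43) and 0.01 (1425351_at, SE 0.36). At 1451680_at the signals were 57.2, 114, 148 and 58.6 in KO and 59.8, 124 and 108 in WT lenses, so 1L, 7L and 2L were low together and the split cut across the groups.

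Txnrd1 and Srxn1 are textbook targets of Nrf2, which binds the antioxidant response element, and Txnip is a textbook target of glucose-sensing factors that bind paired E-boxes. Promoter windows of the members were searched for these letters on both strands, in RefSeq sequence of GRCm38.p6 from 250 bases before to 50 bases after each transcription start. The table held 12 windows for 9 of the 10 genes, and Msra was not among them. The element core TGACNNNGC occurred in windows of 3 genes (Msrb2, Srxn1 and Txnrd1) and in 12.4% of all 32851 windows of the table. Variants of the core were not searched for, such as TGAGTCAGC, which the Srxn1 window holds and which is left in small letters below. The perfect E-box CACGTG occurred in none of the members' windows and in 7.15% of all, which says nothing of imperfect boxes. The Txnip window holds 1 pair of these, CACGAG and again CACGAG after 5 bases, a pattern written down after the window had been seen. The pair occurred in 1 of the 32851 windows (0.00304%), the Txnip window itself, and since it was taken from there this share is no test. The windows with a match are shown to place it, with the matched bases in capitals. The Txnip match is on the strand of the gene, and the 3 matches of the element core are on the opposite strand. They are chr2:19371386-19371685 for Msrb2, chr2:152105274-152105573 for Srxn1, chr10:82858956-82859255 for 1 of the 3 Txnrd1 windows and chr3:96557707-96558006 for Txnip, each printed 5′ to 3′ on the plus strand.
Msrb2: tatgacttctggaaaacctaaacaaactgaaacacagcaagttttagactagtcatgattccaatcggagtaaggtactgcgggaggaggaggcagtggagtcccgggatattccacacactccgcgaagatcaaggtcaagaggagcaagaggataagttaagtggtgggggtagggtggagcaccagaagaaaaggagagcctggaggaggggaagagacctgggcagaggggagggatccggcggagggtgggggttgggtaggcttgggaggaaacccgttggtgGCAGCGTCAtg
Srxn1: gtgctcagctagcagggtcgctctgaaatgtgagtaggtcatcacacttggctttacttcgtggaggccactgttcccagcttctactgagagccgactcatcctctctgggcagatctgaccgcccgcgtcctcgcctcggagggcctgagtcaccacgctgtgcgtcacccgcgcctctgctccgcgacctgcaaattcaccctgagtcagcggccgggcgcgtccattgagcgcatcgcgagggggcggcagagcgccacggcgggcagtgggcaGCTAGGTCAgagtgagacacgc
Txnrd1: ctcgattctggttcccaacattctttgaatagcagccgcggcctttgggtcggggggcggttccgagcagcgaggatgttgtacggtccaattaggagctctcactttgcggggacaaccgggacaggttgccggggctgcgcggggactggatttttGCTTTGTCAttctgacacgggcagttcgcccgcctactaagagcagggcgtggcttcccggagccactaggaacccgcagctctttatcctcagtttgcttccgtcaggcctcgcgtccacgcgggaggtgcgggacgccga
Txnip: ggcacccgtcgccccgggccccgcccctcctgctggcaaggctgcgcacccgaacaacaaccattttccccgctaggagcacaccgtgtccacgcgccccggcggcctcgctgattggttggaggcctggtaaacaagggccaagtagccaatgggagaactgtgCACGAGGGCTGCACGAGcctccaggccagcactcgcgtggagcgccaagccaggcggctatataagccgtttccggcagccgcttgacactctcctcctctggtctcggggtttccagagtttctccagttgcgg
Read on its own strand, the match is TGACGCTGC for Msrb2, TGACCTAGC for Srxn1 and TGACAAAGC for Txnrd1. The brightest probe sets of Msrb2, Srxn1, Txnrd1 and Txnip differed by -0.11, 0.23, 0.13 and -0.16 between KO and WT, each less than its standard error.

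KO animal 1 gave both lenses, which allows the groups to be set beside the spread inside 1 animal. The gap between 1L and 1R was larger than the gap between the KO and WT means at 15 of the 20 probe sets (75.0%), against 68.5% of all probe sets. At the bright probe set of Txn1 the lenses differed by 0.74 (1L over 1R) and the groups by -0.03, and at the brightest of Txn2 by 0.90 and -0.30. Msra (0.20 between lenses, -0.49 between groups), Glrx3 (0.07 and 0.44) and the bright probe set of Glrx (0.42 and -0.61) had the smaller gap within the animal. Of the brightest probe sets, 9 of 10 were higher in 1L than in 1R, Txnip being the exception, while over all genes 9501 of 18193 were. Averaged over the 10 genes, lens 1R was the lowest of the 7, at -0.26 from the mean of the animals, and the WT lens 2L the highest, at 0.24. Lens 2L also had the lowest ratio of 3′ to 5′ Gapdh signal, 3.75 against 9.06 to 15.9 in the other 6, a ratio that is lower in more intact RNA, and its part in the members' values was not tested. Its mean was 11.6 ± 2.37 over KO animals and 9.57 ± 6.09 over WT animals (SD, n = 3, two-sided exact permutation test p = 0.7, the smallest possible being 0.1). Without WT animal 2 the median difference over the 10 genes was -0.04, and without KO animal 4 it was -0.03.

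**Figure D3:**
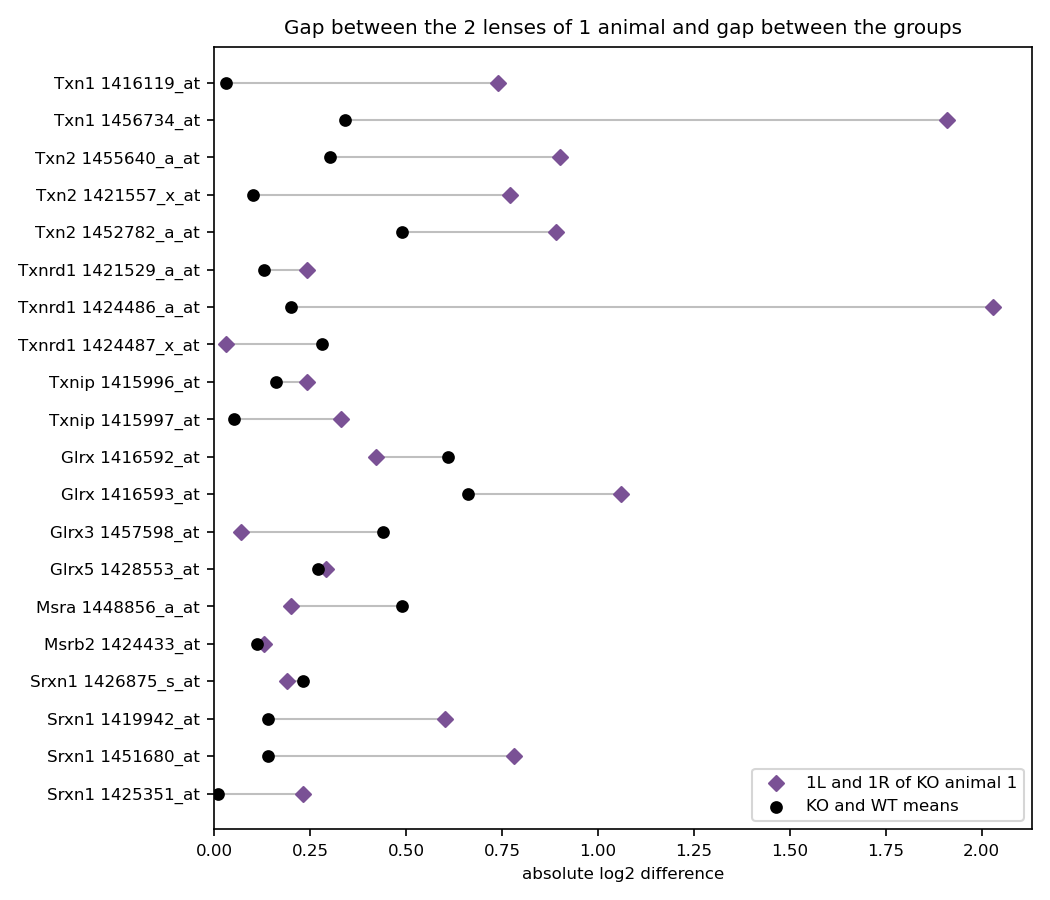
Absolute log2 difference between lenses 1L and 1R of KO animal 1 (purple diamonds) and between the KO and WT means (black circles) at each of the 20 probe sets. The diamond lies to the right of the circle at 15 of the 20.

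Genes that work with the members were read from 5 lists, at the brightest probe set of each gene. None of their genes passed the adjusted threshold. Over all genes on the array 4.07% had an unadjusted p under 0.05. Among 23 other thioredoxin-fold and methionine sulfoxide reductase genes, 15 were lower and 8 higher in KO. Their median log2 difference was -0.07, and 0 had an unadjusted p under 0.05 (limma). The smallest p belonged to Tmx3, a membrane-bound disulfide isomerase relative, with a difference of 0.33 (SE 0.24), and to Txndc12 at -0.28 (SE 0.21).

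The list of clients and partners of thioredoxin, 13 of them measured, also holds factors of selenoprotein synthesis and the reductase gene Ptgr1. In this list 9 were lower and 4 higher in KO, with a median of -0.17. An unadjusted p under 0.05 was found at 2, Ptgr1 and the selenoprotein synthesis factor Eefsec, both lower. The next smallest was that of Map3k5, higher in KO (0.30, unadjusted p = 0.152 in limma). Ptgr1, a reductase of prostaglandins and reactive alkenals, had signals of 319, 288, 166 and 276 in the KO lenses 1L, 1R, 4L and 7L and of 516, 395 and 313 in the WT lenses 2L, 5L and 6L. Lens 4L was lowest. The deposited signal of the KO lens 1L (319) was above that of the WT lens 6L (313). The groups were apart only after normalization (8.35 in 1L against 8.43 in 6L). The difference was -0.72 (SE 0.30, unadjusted p = 0.0390 in limma). Eefsec, the elongation factor that brings selenocysteine to the ribosome and so is needed to make Txnrd1 protein, had signals of 197, 243, 322 and 316 in KO and of 467, 365 and 509.8 in WT lenses. All KO lenses were below all WT lenses, and the difference was -0.66 (SE 0.28, unadjusted p = 0.0412 in limma). Without WT animal 2, 0 genes of this list had an unadjusted p under 0.05.

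Among 15 measured iron-sulfur partners of Glrx3 and Glrx5, 7 were higher and 8 lower, with a median of -0.01. The smallest p were those of Aco1, the cytosolic aconitase that turns into an iron-responsive RNA-binding protein, with a difference of 0.41 (SE 0.19, unadjusted p = 0.0537 in limma), and of Nfs1, the cysteine desulfurase of cluster assembly, at -0.46 (SE 0.27). The median over 18 measured Nrf2 regulators and targets was 0.00, with 9 higher and 9 lower and 0 at an unadjusted p under 0.05. Cat, catalase, differed by 0.40 (SE 0.25) and Bach1, a repressor at the same elements, by 0.37 (SE 0.25).

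Among 13 Txnip relatives and glucose-sensing regulators, 8 were lower and 5 higher, with a median of -0.05. Slc2a3, a glucose transporter, was the one gene of the list with an unadjusted p under 0.05. Its signals were 1181, 772, 667 and 599 in the KO lenses 1L, 1R, 4L and 7L and 418, 139 and 211 in the WT lenses 2L, 5L and 6L. All KO lenses were above all WT lenses. The level averaged 9.54 ± 0.35 over KO animals and 7.98 ± 0.65 over WT animals (SD, n = 3), a difference of 1.56 (SE 0.36, unadjusted p = 0.00147, adjusted p = 0.99988 in limma).

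**Figure D4:**
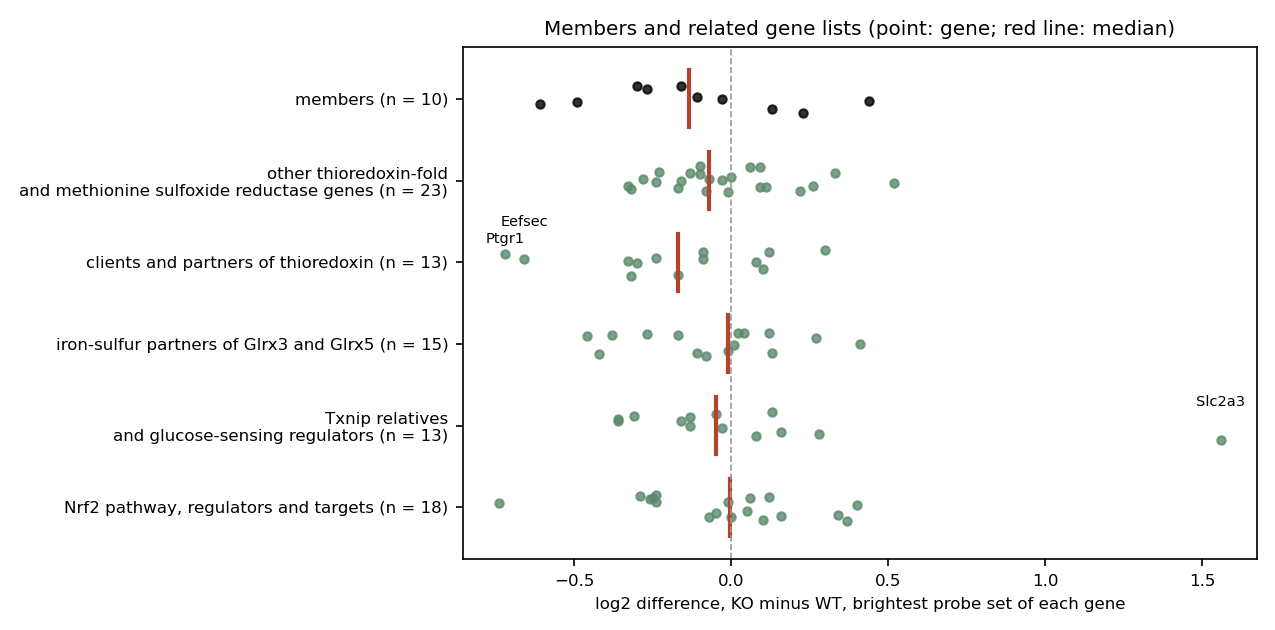
Log2 difference, KO minus WT, at the brightest probe set of each gene, for the 10 members and the 5 related lists (points, spread vertically for legibility), with the median of each as a red line. Genes with an unadjusted p under 0.05 are named. The medians lie between -0.17 and 0.00, and Slc2a3 at 1.56 stands farthest from 0.

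The captured tissue held RNA of more than 1 cell type, and in it fewer cells of a type and less RNA per cell cannot be told apart. The 7 lens epithelium markers summed to signals between 58716 and 87179 in KO and between 58425 and 74627 in WT lenses. None of them was at background in all lenses. Cryab alone read 28252 to 51883 over the 7 lenses, so the sum says little of the weaker markers. Foxe3 was weak, with 11.5 to 84.1 in KO against 40.2 to 118 in WT. It was at or under the highest control in 3 of 4 KO lenses and 1 of 3 WT lenses. The Foxe3 difference was -1.02 (SE 0.46, unadjusted p = 0.0507 in limma). Fibre markers were abundant (121694 to 163120 in KO and 108414 to 163838 in WT), and 4 photoreceptor markers summed to 36418 to 55480 in KO and 32040 to 58783 in WT. The 10 macrophage and leukocyte markers summed to 1877 to 2757 in KO and 925 to 1608 in WT, with 9 of 10 higher in KO. Of these markers 4 had an unadjusted p under 0.05, among them Aif1, which was lower in KO and at or under the highest control in every lens. The 6 measured blood and endothelial markers summed to 601 to 789 in KO and 261 to 593 in WT, all 6 higher in KO. Kdr alone read 361 to 475 in KO lenses. The 2 at an unadjusted p under 0.05, Alas2 and Slc4a1, were at or under the highest control in all 3 WT lenses. Hba-a1 and Pecam1 were at or under it in every lens. Over all genes 8299 of 18193 were higher in KO and 4.07% had an unadjusted p under 0.05 (limma). As deposited signals, the macrophage and blood sums were higher in every KO lens than in any WT lens. For blood the margin was narrow, the lowest KO sum being 601 and the highest WT sum 593. Csf1r was the brightest macrophage marker in every lens, and its groups overlapped (868 in KO lens 1R, 886 in WT lens 5L). On the normalized scale only Tyrobp of the macrophage markers and Alas2 of the blood markers were higher in KO without overlap. Aif1 was lower without overlap, and the other macrophage and blood markers overlapped. Among members and list genes, Glrx3, Slc2a3 and Aco1 were higher in KO without overlap on the normalized scale. Msra, Ptgr1, Eefsec and 2 genes of the Nrf2 list were lower without overlap on that scale. Over all 18193 genes 457 were higher and 541 lower without overlap. The part of the macrophage and blood sums in the values of these members and list genes was not tested. Among fibre markers 1 of 7 had an unadjusted p under 0.05, the nuclease gene Dnase2b, lower in KO by mean (-0.83, unadjusted p = 7.14e-04 in limma), although lens 1R was the highest of all 7. The sums overlapped for the 5 pigment cell markers (13272 to 39917 in KO, 7047 to 22220 in WT) and the 4 of skeletal muscle (6359 to 25864 in KO, 5878 to 40216 in WT). The pigment epithelium gene Rpe65 was lower in all 4 KO lenses than in any WT lens (-1.13, unadjusted p = 0.0106 in limma). The sums also overlapped for the 3 markers of surface epithelium (637 to 12268 in KO, 5357 to 13665 in WT) and the 4 of stroma (7121 to 21822 in KO, 12465 to 19174 in WT). The keratin gene Krt5 differed by -1.66 (unadjusted p = 0.0491 in limma), with lens 7L far below the others. None of these markers passed the adjustment, and their part in the members' values was not tested either.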

How the data were processed

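RNA of laser-captured lens epithelium was measured on 7 Affymetrix arrays, 1 per lens. Per the labels' protocols, RNA was extracted with a column kit, amplified by a repeated cycle and biotin-labelled. The values the authors deposited are linear intensity values, 1 per probe set. Tested on the table, every array had a mean of 500.003 or 500.004 after trimming 2% at each end. The summary software and the genome build were not given in the sources used here. The number of arrays limits the precision.

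From these, 45037 of 45101 probe sets were kept (64 controls dropped, no filter on low values), turned into log2(signal + 16), which understates the change of weak probe sets, and quantile normalized. Of these probe sets 34945 had 1 symbol in the platform annotation, 932 several and 9160 none. 34741 were found by gene number in the table of GRCm38.p6. Amplification from the 3′ end can lower probe sets far from it.

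Animals were compared with limma 3.58.1 (lmFit, trended eBayes, R 4.3.3). Tests were two-sided and called at 0.05 after Benjamini-Hochberg adjustment across the whole table. Array quality was compared with exact permutation tests. The code was tested on simulated data. Alternatives were other units of replication, normalizations, pseudocounts of 1 and 64, a filter on low values, other variance models, an adjusted p of 0.1 and leaving out each animal. Every member is named. Of the lists, genes with an unadjusted p under 0.05 are named, or else the 2 with the smallest p. The members and lists were chosen with earlier results of these data known.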

Additional observations from a re-analysis of the deposited data

Results flagged for a closer look

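At 3 of the 20 member probe sets, 1 of the 4 KO lenses stood apart from the other 3, its gap to the nearest over the whole range passing Dixon's critical value. Lens 1L was high at the weak probe sets of Txn1 (1456734_at, ratio 0.929) and Txnrd1 (1424486_a_at, ratio 0.831), where the other 3 KO lenses were under the highest bacterial control. The WT lens 5L was the highest of its group at both, with signals of 62.3 and 36.9. Lens 7L, the only one from a male, was high at Msrb2 (ratio 0.843, signal 228 against 126 to 139 in the other KO lenses). Chance flags about 1 in 20 groups, and over all probe sets 6.45% were past this value. The lenses 1L and 1R come from 1 animal, so the 4 values are not independent.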

How the results depend on the processing

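No member probe set passed the adjusted threshold under any of 11 other settings or without any of 6 animals, and the adjusted p of a member was never under 0.66196. Probe sets of members at an unadjusted p under 0.05 numbered 1 with the 7 lenses as independent samples, with median centring, with the signals as deposited and with a pseudocount of 64, 2 with array weights, and 0 to 2 without 1 animal. Over all probe sets there were 1828, or 3150 with array weights and 770 with the filter, which tests fewer probe sets. Their split into higher and lower in KO was 1011 and 817, 801 and 1092 with median centring, and 1271 and 574 with the signals as deposited. The median over the members ran from -0.30 to -0.03 without 1 animal. The list of other thioredoxin-fold genes had a median of -0.16 with median centring. The clients had one of -0.22 when animal 1 was its right lens alone, -0.24 with median centring, -0.13 with array weights and -0.23 to -0.10 without 1 animal. The iron-sulfur partners had one of -0.10 with median centring and -0.11 to -0.01 without 1 animal.

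Of 333 combinations of member probe set and setting, 26 changed sign, not counting values that round to 0.00, and 8 of the 20 probe sets never did. The filter left 7 of the 20 without a value. The cause was not tested. Txn1 1416119_at was at 0.03 with 7 lenses, 0.09 when animal 1 was its left lens alone, 0.06 with array weights and -0.15 to 0.10 without 1 animal. With that left lens only, Txnrd1 1424486_a_at was at 0.14, Txnip 1415997_at at 0.01 (0.02 with the signals as deposited) and Srxn1 1425351_at at -0.03. With the right lens only, Txn2 1421557_x_at was at -0.03. Without 1 animal the ranges were -0.66 to 0.28 for Txn1 1456734_at, -0.12 to 0.24 for Txn2 1421557_x_at, -0.07 to 0.31 for Txnrd1 1421529_a_at, -0.44 to 0.23 for Txnrd1 1424486_a_at, -0.37 to 0.05 for Txnip 1415996_at, -0.21 to 0.13 for Txnip 1415997_at and -0.36 to 0.03 for Msrb2. For Srxn1 they were -0.01 to 0.57 (1426875_s_at), -0.26 to 0.01 (1419942_at), -0.48 to 0.11 (1451680_at) and -0.21 to 0.17 (1425351_at). KO and WT animals share no number, so no paired fit was made. Signals near the bacterial controls and 3 animals a group limit what could be resolved.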
